A study of Homo sapiens with 18 samples.

Results

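The genes described here are 9 genes of the complement system and its regulators, C3, C5AR1, CFB, C1S, C1R, CD46, CD55, CD59 and SERPING1, among 58051 gene identifiers in both tables. They were picked by symbol, and C3 and C5AR1 were picked because they separate the cell populations, so all values of these 2 genes are a description without a test. All 9 had values with DMSO, and 8 had usable values with ATRA and decitabine. SERPING1 passed the filters on low values only through treated libraries, where it is high, so it is described without a test too, which leaves C1S, C1R, CD46, CD55 and CD59 for tests.

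Complement is a cascade of plasma and membrane proteins. The proteases C1r and C1s start the classical pathway, C3 is the central component whose cleavage tags surfaces, and factor B (CFB) forms the alternative pathway convertase with C3b. The C5a receptor (C5AR1) passes on the inflammatory signal of C5a. Cells protect themselves with the membrane regulators CD46, CD55 and CD59, and C1 inhibitor (SERPING1) inactivates C1r and C1s in plasma. Liver makes most of the circulating components, but epithelial and tumour cells also transcribe many of them.

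RNA was sequenced from NCI-H460 cells, an adherent large-cell lung cancer line whose genotype is labelled wild type. The populations were resistant 1 and resistant 2, which the submitters describe as resistant to decitabine with all-trans retinoic acid (ATRA), and the parental line. Each population received 2 µM ATRA with 50 µM decitabine per the labels, or DMSO (0.7% v/v), from 24 h after seeding, and RNA was taken at 72 h. This gave 6 groups of 3 libraries, labelled biological replicates. The labels name no separate derivations within a resistant population, so the p-values measure the spread between the 3 libraries of a group and not between independent derivations. Decitabine is a cytidine analogue that traps DNA methyltransferases after being built into DNA, and ATRA activates the nuclear retinoic acid receptors.

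The treated libraries held 116.7 to 181.2 M reads over the genes with usable values and the DMSO libraries 116.9 to 140.9 M recovered reads. The treated table had lost its decimal points, and a gene was kept if its restored values had a posterior probability of at least 0.99. That probability was 99.89% for C3, 99.75% for C5AR1 and 99.82% for SERPING1, and 99.96% to 99.99% for C1S, C1R, CD46, CD55 and CD59. It was 98.85% for CFB, which therefore has no value with ATRA and decitabine. The 9 treated C3 counts are also the smallest whole numbers of reads that give the deposited digits, so another placement could only raise them. Some counts of other genes were placed at 10 or more times that smallest number, and another placement could lower these. They were 2 of 9 treated values for C5AR1, 2 for CD55, 3 for CD46, 1 for C1R and 1 for SERPING1. Keratin 8, an epithelial keratin, averaged 98880 to 185678 normalized counts in the treated groups and 78253 to 116833 in the DMSO groups. The adhesion gene CDH1 averaged 61.2 in treated resistant 1, 42.2 in treated resistant 2 and 1403 in treated parental cells. In the DMSO groups CDH1 averaged 0.915 to 1.38. The 6 epithelial markers listed, these among them, did not go one way. With DMSO, EPCAM averaged 3.90 in resistant 1, 3.88 in resistant 2 and 93.5 in parental cells. KRT19 averaged 188443 in resistant 1, 31026 in resistant 2 and 84570 in parental cells with DMSO. The exons of C1R shared 11.4% of their bases with C1RL, those of CD59 6.07% with AL049629.2 and those of C1S 3.54% with EMG1, each on the same strand, and how such reads were assigned is not given in the sources used here.

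Promoters are shown because decitabine acts on the methylation of CG pairs. Of the 9 genes, 6 had an entry among the RefSeq promoters (GRCh38.p14), with 11 starts in all, and entries for C3, C1S and SERPING1 were not used here. The 250 bases before the start held 7 CG pairs at C5AR1, 7 at CFB, 6 and 7 at the C1R starts, 12 at CD55, 19 and 21 at the CD46 starts, and 12, 18, 1 and 1 at the CD59 starts. The median over all 35116 promoters of this length was 11. The following sequences belong to the receptor whose means with the drugs lay on opposite sides of those with DMSO in resistant and parental cells, to a protease gene and to the most abundant regulator, with capitals marking CG pairs (the motif CG reads the same on both strands).
C5AR1, chr19:47309611-47309860, plus strand: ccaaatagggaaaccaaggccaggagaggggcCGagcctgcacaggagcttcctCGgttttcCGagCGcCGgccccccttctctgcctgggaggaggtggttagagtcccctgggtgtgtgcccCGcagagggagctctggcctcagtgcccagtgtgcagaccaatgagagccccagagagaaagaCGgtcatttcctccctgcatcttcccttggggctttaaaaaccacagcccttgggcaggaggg
C1R, chr12:7092446-7092695, minus strand: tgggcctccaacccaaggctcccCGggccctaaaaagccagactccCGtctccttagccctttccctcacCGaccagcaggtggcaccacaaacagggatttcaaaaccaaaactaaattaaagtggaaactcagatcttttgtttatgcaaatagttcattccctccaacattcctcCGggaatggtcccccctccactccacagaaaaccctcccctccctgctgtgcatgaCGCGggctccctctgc
CD55, chr1:207321428-207321677, plus strand: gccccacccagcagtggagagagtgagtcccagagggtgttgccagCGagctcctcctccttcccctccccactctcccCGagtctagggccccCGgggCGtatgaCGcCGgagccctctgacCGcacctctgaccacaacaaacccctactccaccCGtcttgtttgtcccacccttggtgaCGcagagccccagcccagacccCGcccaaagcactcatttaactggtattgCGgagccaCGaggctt
The motif AGGTCA, the half-site of many nuclear receptors, was searched on both strands and holds no CG pair itself. It was found before both CD46 starts, whose windows overlap and hold the same copy of the motif. None of the other 9 starts had it, against 12.1% of all promoters with it. DNA methylation and receptor binding were not measured in these data.

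C1S and C1R, which lie side by side on chromosome 12 (C1S at 6988259 to 7071032 on the plus strand, C1R at 7080199 to 7092607 on the minus strand, GRCh38, GENCODE 29), were both higher in each resistant population than in parental cells, and most of all in resistant 2. With ATRA and decitabine, C1S had 18319, 15902 and 18118 normalized counts in resistant 1, 42385, 42918 and 41268 in resistant 2, and 6484, 5522 and 5849 in parental cells. With DMSO, C1S had 14932, 14689 and 15809 normalized counts in resistant 1, 38161, 36286 and 36183 in resistant 2, and 4060, 3493 and 4439 in parental cells. The 3 populations did not overlap under either treatment, and resistant 2 had the highest C1S values. On the scale of log2(normalized count + 1), C1S was higher in resistant 1 than in parental cells by 1.55 ± 0.08 (SE) with the drugs (adjusted p = 2.46e-08) and by 1.93 ± 0.09 with DMSO (adjusted p = 2.88e-08). In resistant 2 the difference from parental cells was 2.83 ± 0.08 with the drugs (adjusted p = 1.84e-10) and 3.21 ± 0.09 with DMSO (adjusted p = 5.26e-10). In bulk RNA, fewer cells with a transcript and less of it per cell cannot be told apart.

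C1R had 1049, 961 and 1011 normalized counts in treated resistant 1, 10005, 8125 and 8627 in treated resistant 2, and 834, 641 and 706 in treated parental cells. With DMSO, C1R had 595, 572 and 660 normalized counts in resistant 1, 7123, 5291 and 5557 in resistant 2, and 440, 424 and 433 in parental cells. Resistant 2 stood apart, at 12.3 times the parental mean with the drugs and 13.9 times with DMSO, whereas resistant 1 was at 1.38 times that mean with the drugs and 1.41 times with DMSO. All 4 C1R differences from parental cells passed the test, at log2 changes of 3.62 ± 0.12 for resistant 2 with the drugs (adjusted p = 3.67e-10), 3.78 ± 0.13 with DMSO (adjusted p = 1.53e-09), 0.48 ± 0.12 for resistant 1 with the drugs (adjusted p = 0.00328) and 0.49 ± 0.13 with DMSO (adjusted p = 0.00741). Between the resistant populations, C1R was lower in resistant 1 by a log2 change of -3.14 ± 0.12 with the drugs (adjusted p = 1.23e-09) and -3.29 ± 0.13 with DMSO (adjusted p = 6.52e-09).

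C3, the component on which all pathways converge (chromosome 19, 6677704 to 6730562, minus strand), separated all 3 populations with DMSO and resistant 2 from the rest with the drugs. With ATRA and decitabine, C3 had 1673, 922 and 2130 normalized counts in resistant 1, 33364, 27344 and 38167 in resistant 2, and 850, 1085 and 1264 in parental cells. With DMSO, C3 had 909, 579 and 1413 normalized counts in resistant 1, 21937, 15982 and 21937 in resistant 2, and 66.0, 70.9 and 77.9 in parental cells. Treated resistant 1 and parental values overlapped, whereas with DMSO no population overlapped another. The ratio of mean C3 counts to parental cells was 1.48 in resistant 1 and 30.9 in resistant 2 with the drugs, and 13.5 in resistant 1 and 279 in resistant 2 with DMSO. These values chose the gene and carry no test.

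SERPINA1, which encodes a protease inhibitor made by hepatocytes, had its highest level in resistant 2, as C3 did, and was the only one of the 6 hepatocyte markers that passed the filters. With the drugs, 5 of the 6 had values, and their sum was 110 to 128 normalized counts in resistant 1, 313 to 354 in resistant 2 and 36.6 to 46.9 in parental cells, so resistant 1 and parental sums stood apart where their C3 values overlapped. With DMSO, all 6 together reached 93.7 to 118 normalized counts in resistant 1, 282 to 333 in resistant 2 and 1.08 to 3.94 in parental cells. SERPINA1 made up most of these DMSO sums in the resistant cells, with a mean of 94.9 in resistant 1, 303 in resistant 2 and 0.680 in parental cells, while albumin (ALB) averaged 3.01 in resistant 1, 2.14 in resistant 2 and 0.647 in parental cells. APOB was at 0 in all 3 resistant 2 libraries with DMSO, and HP and TTR in all 3 parental ones. The part of these transcripts in the C3 values was not tested.

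CFB, the protease of the alternative pathway (chromosome 6, 31945650 to 31952084, plus strand), was close to undetected in the DMSO libraries. It had 2 reads in 1 resistant 2 library and 0 in the other 8 DMSO libraries. A floor of 3 was set per library, since 0 reads cannot be told apart from an expected count of up to about 3. A read-through transcript annotated as AL645922.1, which shares 45.0% of the CFB exon bases on the same strand, also had 0 reads in all 9 DMSO libraries. How reads from the shared bases were assigned is not given in the sources used here. The low counts at both genes therefore do not settle whether CFB was transcribed. With ATRA and decitabine CFB was listed at 0 in 3 of 9 libraries.

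C5AR1, a receptor best known from myeloid cells (chromosome 19, 47290023 to 47322066, plus strand), ran the other way and was highest in parental cells. With ATRA and decitabine, C5AR1 had 409, 537 and 556 normalized counts in resistant 1, 707, 820 and 724 in resistant 2, and 883, 990 and 1059 in parental cells. With DMSO, C5AR1 had 154, 207 and 201 normalized counts in resistant 1, 344, 359 and 308 in resistant 2, and 2688, 3643 and 3503 in parental cells. No population overlapped another under either treatment, and resistant 1 was lowest under both. The mean was 1.95-fold lower in resistant 1 than in parental cells with the drugs and 17.5-fold lower with DMSO, and in resistant 2 it was 1.30-fold lower with the drugs and 9.72-fold lower with DMSO. Again these values chose the gene and carry no test.

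Of the 7 myeloid markers, all had DMSO values, and their sum was 173 to 256 normalized counts in resistant 1, 140 to 221 in resistant 2 and 209 to 433 in parental cells. The markers did not go one way. CD14, which encodes a receptor for lipopolysaccharide, averaged 96.4 normalized counts in resistant 1, 37.3 in resistant 2 and 312 in parental cells with DMSO, and so was highest in parental cells, as C5AR1 was. LYZ averaged 21.1 in resistant 1, 105 in resistant 2 and 7.65 in parental cells, and CD68 averaged 20.1 in resistant 1, 11.2 in resistant 2 and 5.00 in parental cells. CSF1R averaged 42.9 in resistant 1, 1.74 in resistant 2 and 23.0 in parental cells, and ITGAM averaged 21.5 in resistant 1, 4.59 in resistant 2 and 8.97 in parental cells. Of the 5 that passed the filter with DMSO, 4 were called higher and 1 lower in resistant 1 than in parental cells. Over all genes, 29.3% were called higher and 26.6% lower there. In resistant 2, 1 was called higher and 3 lower, against 32.1% and 29.8% of all genes. LYZ, CD68 and ITGAM, with parental means under the filter of 10 normalized counts, passed it through resistant libraries. These counts therefore describe the markers and do not test them. The pan-leukocyte gene PTPRC averaged 1.85 in resistant 1, 15.9 in resistant 2 and 0.361 in parental cells, and TYROBP was at 0 in all parental DMSO libraries. Only 1 of the 7 had a value with ATRA and decitabine, and the part of these transcripts in the C5AR1 values was not tested.

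The membrane regulators CD55 and CD59 were higher in both resistant populations than in parental cells, and CD46 was lower in resistant 1. CD55, which speeds the decay of the C3 convertases, had 466478, 397322 and 492035 normalized counts in treated resistant 1, 362600, 302658 and 212590 in treated resistant 2, and 84847, 104585 and 104920 in treated parental cells. With DMSO, CD55 had 420841, 401124 and 409222 normalized counts in resistant 1, 239810, 185304 and 137703 in resistant 2, and 96606, 102260 and 125981 in parental cells. Resistant 1 had the highest values, every resistant library lay above every parental library of its treatment, and resistant 2 varied most among its libraries. The log2 change of CD55 from parental cells with the drugs was 2.20 ± 0.17 for resistant 1 (adjusted p = 3.96e-07) and 1.55 ± 0.17 for resistant 2 (adjusted p = 4.87e-06). With DMSO it was 1.93 ± 0.17 for resistant 1 (adjusted p = 3.32e-06) and 0.77 ± 0.17 for resistant 2 (adjusted p = 0.00239). CD55 was also higher in resistant 1 than in resistant 2, by 0.66 ± 0.17 with the drugs (adjusted p = 0.00501) and 1.17 ± 0.17 with DMSO (adjusted p = 0.000173).

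CD59, which blocks the assembly of the membrane attack complex, had 37901, 35540 and 40575 normalized counts in treated resistant 1, 46938, 40814 and 40501 in treated resistant 2, and 15371, 14550 and 13966 in treated parental cells. With DMSO, CD59 had 51978, 56603 and 58171 normalized counts in resistant 1, 52489, 44368 and 46173 in resistant 2, and 12698, 10269 and 11639 in parental cells. The resistant populations overlapped each other and lay above parental cells throughout. The log2 change of CD59 from parental cells with the drugs was 1.38 ± 0.08 for resistant 1 (adjusted p = 5.66e-08) and 1.54 ± 0.08 for resistant 2 (adjusted p = 1.28e-08). With DMSO it was 2.27 ± 0.10 for resistant 1 (adjusted p = 1.23e-08) and 2.05 ± 0.10 for resistant 2 (adjusted p = 2.26e-08). Resistant 1 minus resistant 2 was -0.17 ± 0.08 for CD59 with the drugs (adjusted p = 0.093) and 0.22 ± 0.10 with DMSO (adjusted p = 0.0833), and neither passed the test, although the DMSO difference did without resistant 2 replicate 1 (0.29, adjusted p = 0.0374).

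CD46, a cofactor for the cleavage of C3b and C4b, differed less from parental cells than CD55 and CD59 did. It had 49914, 46910 and 47709 normalized counts in treated resistant 1, 63299, 70115 and 65442 in treated resistant 2, and 59060, 59122 and 60961 in treated parental cells. With DMSO, CD46 had 37955, 38684 and 36555 normalized counts in resistant 1, 56602, 51389 and 48612 in resistant 2, and 47718, 44599 and 54239 in parental cells. Resistant 1 was below the other two populations in every library, with a log2 change from parental cells of -0.31 ± 0.06 with the drugs (adjusted p = 0.00103) and -0.37 ± 0.09 with DMSO (adjusted p = 0.00556). In resistant 2 the CD46 change from parental cells was 0.15 ± 0.06 with the drugs (adjusted p = 0.0514, and 0.0214 without treated resistant 2 replicate 1) and 0.10 ± 0.09 with DMSO (adjusted p = 0.383). CD46 was lower in resistant 1 than in resistant 2 by a log2 change of -0.46 ± 0.06 with the drugs (adjusted p = 6.71e-05) and -0.47 ± 0.09 with DMSO (adjusted p = 0.00138).

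SERPING1, the plasma inhibitor of C1r and C1s, was near its detection limit. The recovered reads of SERPING1 were 8, 7 and 10 in treated resistant 1, 11, 15 and 21 in treated resistant 2, and 26, 56 and 28 in treated parental cells, against 1, 3 and 1 in resistant 1, 5, 1 and 3 in resistant 2, and 2, 0 and 1 in parental cells with DMSO. Every treated library exceeded every DMSO library of its population, and treated parental cells had the most reads. With DMSO the gene lay under the filter, and with the drugs it passed through the parental and resistant 2 libraries. The mean of the treated libraries was 8.08 normalized counts in resistant 1, 18.4 in resistant 2 and 31.3 in parental cells, and the treated resistant 2 and parental libraries overlapped.

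The counts of the 5 tested genes called higher or lower were as follows. With ATRA and decitabine, 4 of 5 were higher and 1 lower in resistant 1 than in parental cells, where 34.8% of all 20603 genes tested were called higher and 31.5% lower. In treated resistant 2, 4 of 5 were higher and 0 lower, against 37.8% and 33.6% of all genes (limma, with 5 of 5 at an unadjusted p under 0.05, and 4 called by edgeR and by DESeq2). With DMSO, 4 of 5 were higher and 1 lower in resistant 1, against 29.3% and 26.6% of all 21643 genes, and 4 of 5 were higher and 0 lower in resistant 2, against 32.1% and 29.8% (limma, with 4 of 5 at an unadjusted p under 0.05, and 4 called by edgeR and by DESeq2). Between resistant 1 and resistant 2, 1 of 5 was higher and 3 lower with the drugs, against 28.9% and 28.8% of all genes, and 1 of 5 was higher and 3 lower with DMSO, against 27.4% and 26.0%.

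**Figure D1:**
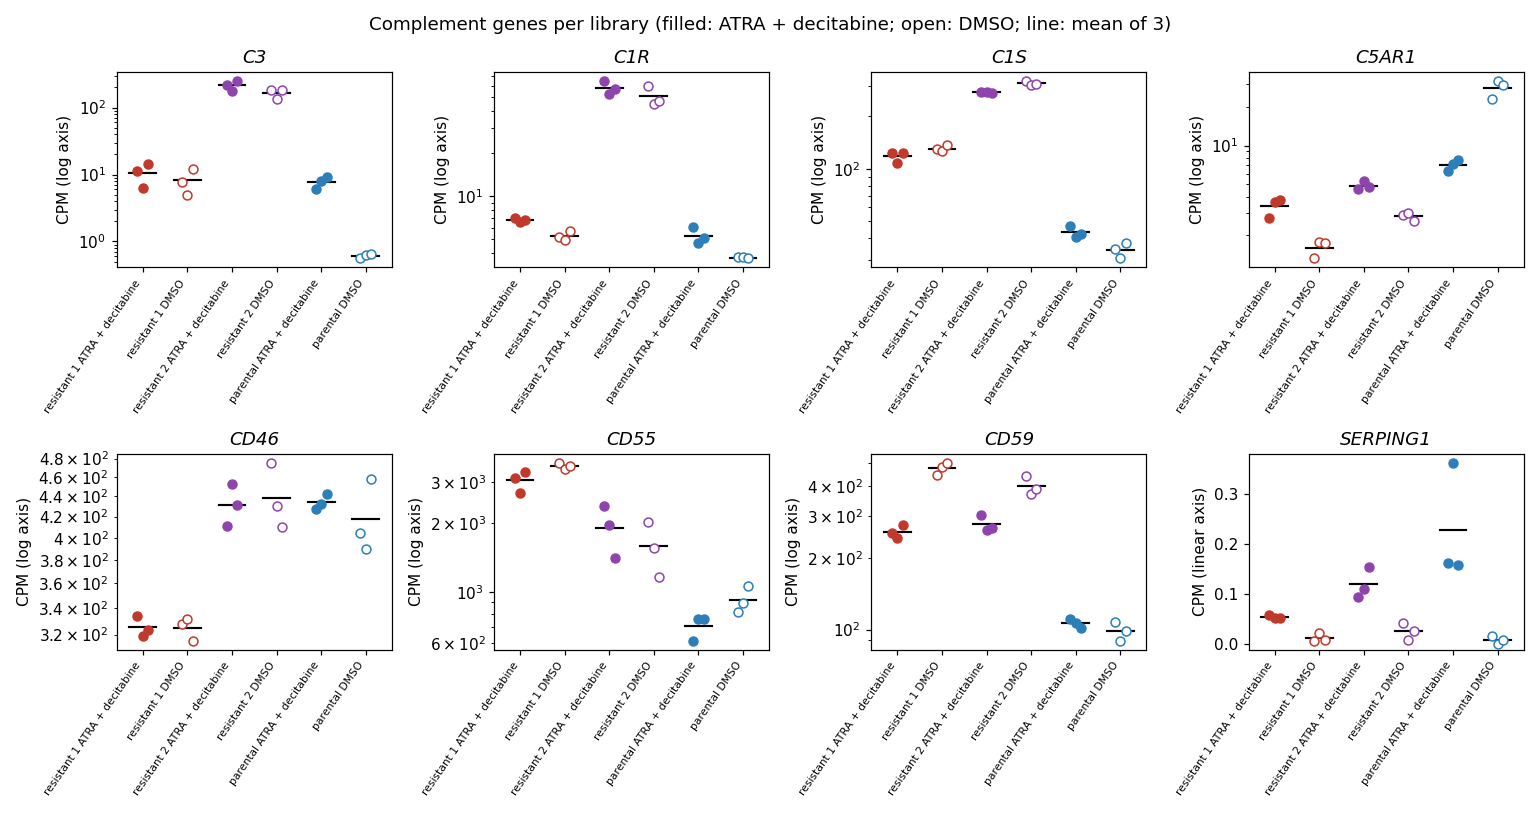
Scaled read counts (CPM, read counts over the library size in M reads) of 8 complement genes in each of 18 libraries, by population and treatment, with a log axis except for SERPING1. Filled points are ATRA with decitabine, open points DMSO, and lines are means of 3 libraries; parental C3 lies at 6.14 to 9.17 CPM with the drugs and 0.559 to 0.658 CPM with DMSO, and parental C5AR1 at 6.38 to 7.68 CPM with the drugs and 22.8 to 31.9 CPM with DMSO.

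Levels per length, as CPM per kilobase of exon, ordered the genes differently in each population. In DMSO-treated resistant 1, CD55 was highest at 598 ± 17.0 (SD, n = 3), then CD59 at 46.2 ± 2.61, CD46 at 37.3 ± 0.954 and C1S at 20.2 ± 0.846. C3 at 1.00 ± 0.437, C1R at 0.891 ± 0.0692 and C5AR1 at 0.546 ± 0.0831 followed in resistant 1, of which C3 did not stand apart from C1R or C5AR1 beyond its spread. In resistant 2 with DMSO the order was CD55 at 267 ± 72.2, CD46 at 50.4 ± 3.83, C1S at 47.9 ± 1.41, CD59 at 38.7 ± 3.45, C3 at 20.1 ± 3.51, C1R at 8.55 ± 1.41 and C5AR1 at 0.960 ± 0.0714, and CD46 and C1S lay within each other's spread. In parental cells with DMSO, CD55 was at 156.7 ± 21.2 and CD46 at 48.0 ± 4.11, CD59 at 9.52 ± 0.863 and C5AR1 at 9.51 ± 1.60 could not be ordered, and C1S at 5.29 ± 0.538, C1R at 0.629 ± 0.00666 and C3 at 0.0735 ± 0.00597 came last before SERPING1. With DMSO, C3 thus lay above C1R and C5AR1 in resistant 2 and below both in parental cells. With the drugs, C3 was at 25.8 ± 4.53 CPM per kilobase in resistant 2, above C1R at 9.87 ± 1.08 and C5AR1 at 1.66 ± 0.123, whereas in parental cells C3 at 0.931 ± 0.183 and C1R at 0.897 ± 0.116 lay within each other's spread, below C5AR1 at 2.41 ± 0.224.

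Among the 5 tested genes, C1R rose and CD59 fell with the drugs in resistant 1, CD59 fell in resistant 2, and C1S and C1R rose in parental cells. On the log2(CPM + 1) scale, 1 of 5 thus rose and 1 fell in resistant 1, where 15.0% of all 21032 genes tested rose and 13.8% fell. In resistant 2, 0 rose and 1 fell, against 10.0% and 9.25% of all genes (limma, with 2 of 5 at an unadjusted p under 0.05, and 1 called by edgeR and by DESeq2). In parental cells 2 rose and 0 fell, against 35.0% and 28.9% (limma, with 2 of 5 at an unadjusted p under 0.05, and 2 called by edgeR and by DESeq2). The same replicate number marked libraries that varied together within each resistant population, and with that number as a block 4 of 5 passed in resistant 1 and 4 of 5 in resistant 2, where the genes called overall also went up, to 9380 with the block against 6054 without it in resistant 1 and to 7207 against 4058 in resistant 2.

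In parental cells C3 was higher and C5AR1 lower with the drugs. C3 was at 6.14, 7.94 and 9.17 CPM in treated parental cells and at 0.559, 0.620 and 0.658 CPM with DMSO. The ratio of the means was 12.7, and the change was 2.43 ± 0.27 in log2(CPM + 1), a scale that understates changes of genes at low CPM. C5AR1 was at 6.38, 7.24 and 7.68 CPM in treated parental cells and at 22.8, 31.9 and 29.6 CPM with DMSO. That is a mean 3.95-fold lower with the drugs, with a change of -1.83 ± 0.13. The groups did not overlap for either gene, and the libraries are those that chose them, so no test is given.

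In the resistant populations C5AR1 was higher with the drugs. It was at 2.74, 3.65 and 3.77 CPM in treated resistant 1 against 1.33, 1.77 and 1.73 CPM with DMSO, and at 4.59, 5.29 and 4.78 CPM in treated resistant 2 against 2.89, 3.01 and 2.60 CPM with DMSO. The groups did not overlap in either population. The changes of C5AR1 were 0.75 ± 0.13 in resistant 1 and 0.62 ± 0.13 for resistant 2. C3 was at 11.2, 6.28 and 14.5 CPM in treated resistant 1 against 7.85, 4.96 and 12.2 CPM with DMSO, and at 217, 176 and 252 CPM in treated resistant 2 against 184, 134 and 185 CPM with DMSO. Groups overlapped, but each treated library exceeded the DMSO library of its number. The C3 changes were 0.33 ± 0.27 in resistant 1 and 0.36 ± 0.27 for resistant 2. These values also chose the genes and carry no test.

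CD59 fell in the resistant populations. It was at 254, 242 and 275 CPM in treated resistant 1 against 449, 485 and 502 CPM with DMSO, and at 305, 263 and 267 CPM in treated resistant 2 against 441, 372 and 389 CPM with DMSO. Parental cells had 111, 106 and 101 CPM with the drugs and 108, 89.8 and 98.3 CPM with DMSO. The resistant groups did not overlap, and the parental ones did. The changes of CD59 were -0.90 ± 0.08 in resistant 1 (adjusted p = 8.6e-07), -0.52 ± 0.08 in resistant 2 (adjusted p = 0.000344) and 0.11 ± 0.08 in parental cells (adjusted p = 0.269).

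The protease genes had smaller responses than CD59 in the resistant populations and larger ones in parental cells. C1R was at 7.02, 6.54 and 6.86 CPM in treated resistant 1 against 5.14, 4.90 and 5.69 CPM with DMSO, and at 6.03, 4.69 and 5.12 CPM in treated parental cells against 3.73, 3.71 and 3.66 CPM with DMSO. It rose by 0.32 ± 0.11 in resistant 1 (adjusted p = 0.0417) and by 0.41 ± 0.11 in parental cells (adjusted p = 0.00433). The call in resistant 1 was lost when any of 7 libraries was left out, among them all 3 treated resistant 1 libraries, with an adjusted p of up to 0.133 without DMSO resistant 1 replicate 2, and it was lost without the filter on low counts (adjusted p = 0.0565). In resistant 2 the C1R change was 0.21 ± 0.11 (adjusted p = 0.232, and 0.0366 with the replicate block or 0.0424 without DMSO resistant 2 replicate 1).

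C1S rose in parental cells, to 46.9, 40.4 and 42.4 CPM with the drugs against 34.4, 30.6 and 37.5 CPM with DMSO, a change of 0.33 ± 0.07 (adjusted p = 0.000903). The C1S values were 123, 108 and 123 CPM in treated resistant 1 against 129, 126 and 136 CPM with DMSO, and 275, 277 and 272 CPM in treated resistant 2 against 320, 304 and 305 CPM with DMSO. Treated values lay below all DMSO values in both resistant populations. The changes of C1S were -0.15 ± 0.07 in resistant 1 (adjusted p = 0.163, and 0.0426 with the replicate block) and -0.17 ± 0.07 for resistant 2 (adjusted p = 0.127, and 0.0266 with the block).

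The CD55 and CD46 responses did not pass the test in any population in the main fit, which has no block. The CD55 response was -0.22 ± 0.19 in resistant 1 (adjusted p = 0.455), 0.28 ± 0.19 in resistant 2 (adjusted p = 0.381) and -0.37 ± 0.19 in parental cells (adjusted p = 0.0994, and 0.0338 with the parental libraries alone in the fit). With the replicate block the CD55 responses of resistant 1 and resistant 2 passed in opposite directions (adjusted p = 0.0225 in resistant 1 and 0.00817 in resistant 2). The CD46 response was 0.0031 ± 0.07 in resistant 1 (adjusted p = 0.985), -0.02 ± 0.07 in resistant 2 (adjusted p = 0.914) and 0.06 ± 0.07 in parental cells (adjusted p = 0.478).

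SERPING1 had more reads with the drugs in each population. The ratio of its summed reads with the drugs to those with DMSO was scaled for depth. It was 4.14 in resistant 1 (25 against 5 reads), 4.56 in resistant 2 (47 against 9 reads) and 26.0 in parental cells (110 against 3 reads). The reads were summed over libraries, so these ratios carry no measure of the spread between libraries and no test. The log2(CPM + 1) changes of SERPING1 were 0.06 ± 0.04 in resistant 1, 0.13 ± 0.04 for resistant 2 and 0.28 ± 0.04 in parental cells. The DMSO libraries held 0 to 5 reads each, and the gene passed the filter of the response comparison through treated libraries alone.

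**Figure D2:**
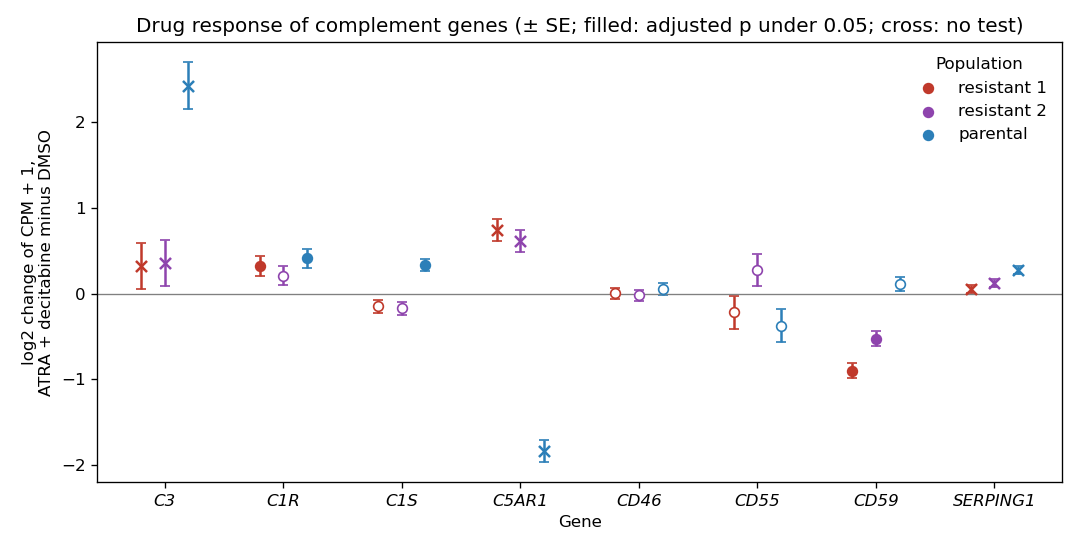
Change of 8 complement genes with ATRA and decitabine against DMSO, in log2(CPM + 1), for resistant 1, resistant 2 and parental cells, each from 3 libraries per treatment. Bars are standard errors, filled points have an adjusted p under 0.05, open points do not, and crosses mark the 3 genes without a test; C3 sits at 2.43 in parental cells and C5AR1 at -1.83, while C5AR1 is at 0.75 in resistant 1 and 0.62 in resistant 2, and CD59 at -0.90 in resistant 1 and -0.52 in resistant 2.

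The responses themselves were compared between populations. For C3 the response of resistant 1 minus that of parental cells was -2.10 ± 0.38 and the response of resistant 2 minus that of parental cells -2.07 ± 0.38, and for C5AR1 these differences were 2.58 ± 0.18 and 2.45 ± 0.18. They draw on the values that chose both genes, and so carry no test. They also depend on the scale. With a pseudocount of 0.1 CPM the C3 differences were -3.09 in resistant 1 and -3.09 in resistant 2, and by edgeR on the recovered reads -3.31 in resistant 1 and -3.30 in resistant 2. Those of C5AR1 were 3.06 in resistant 1 and 2.77 in resistant 2 by edgeR. Of the 5 tested genes, 2 had a lower response in resistant 1 than in parental cells and 0 a higher one, where 25.3% of all genes had a lower and 17.0% a higher response (limma, with 2 of 5 at an unadjusted p under 0.05, and 2 called by edgeR and by DESeq2). In resistant 2, 2 of 5 had a lower response than in parental cells and 0 a higher one, against 28.3% and 19.7% (limma, with 3 of 5 at an unadjusted p under 0.05, 2 called by edgeR and 3 by DESeq2).

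The response difference of CD59 from parental cells was -1.01 ± 0.12 in resistant 1 (adjusted p = 4.39e-06) and -0.63 ± 0.12 for resistant 2 (adjusted p = 0.000354), and that of C1S was -0.48 ± 0.10 in resistant 1 (adjusted p = 0.00152) and -0.51 ± 0.10 for resistant 2 (adjusted p = 0.000834). For SERPING1 it was -0.22 ± 0.06 in resistant 1 and -0.15 ± 0.06 for resistant 2, with no test. For CD55 the difference of resistant 2 from parental cells was 0.65 ± 0.27 (adjusted p = 0.0585, but 0.0133 without DMSO resistant 2 replicate 1 and 0.0107 without treated resistant 2 replicate 3). Between the resistant populations, 0 of 5 responses passed the test, where 3.46% of all genes had a higher and 1.61% a lower response in resistant 1 (limma, with 1 of 5 at an unadjusted p under 0.05, and 0 called by edgeR and by DESeq2). That 1 was CD59, at -0.37 ± 0.12 (adjusted p = 0.0948, and 0.0458 without DMSO resistant 2 replicate 1). With the replicate block CD59 (adjusted p = 0.00575) and CD55 (-0.49, adjusted p = 0.00601) passed.

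Other genes of the cascade were taken from a list of 52, of which 28 passed the level filter with DMSO and 26 with the drugs and in the response fit. With the drugs, 8 of 26 were higher and 15 lower in resistant 1 than in parental cells, against 34.8% and 31.5% of all genes, while resistant 2 had 8 higher and 13 lower, against 37.8% and 33.6%. With DMSO, 13 of 28 were higher in resistant 1 and 6 lower, against 29.3% and 26.6% of all genes, while resistant 2 had 19 higher and 5 lower, against 32.1% and 29.8%. The median log2 change of the list in resistant 1 was -1.04 with the drugs (0.03 over all genes) and 0.53 with DMSO (0.01 over all genes). In resistant 2 it was -0.54 with the drugs (0.06 over all genes) and 1.44 with DMSO (0.02 over all genes). Some of these genes, among them CFI with DMSO and MASP1 under both treatments, passed the filter through resistant libraries, where they are higher. The population counts and medians of the list therefore describe it and do not test it.

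Factor I (CFI), the soluble protease that cuts C3b with the help of cofactors such as CD46, was abundant in resistant 2. CFI averaged 22.4 ± 2.12 normalized counts in treated resistant 1, 12455 ± 1874 in treated resistant 2 and 46.4 ± 9.08 in treated parental cells (SD, n = 3), and with DMSO 4.02 ± 2.52 in resistant 1, 5420 ± 151 in resistant 2 and 3.37 ± 2.48 in parental cells. With DMSO the resistant 1 and parental means lay under the filter, which CFI passed through resistant 2, so no test is given there. With the drugs, CFI was lower in resistant 1 than in resistant 2 by a log2 change of -9.05 ± 0.17 (adjusted p = 9.61e-12), and the change of resistant 2 from parental cells was 8.04 ± 0.17 (adjusted p = 2.11e-11).

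C5, the source of the C5AR1 ligand, had its highest mean in resistant 1. It averaged 5794 ± 678 normalized counts in treated resistant 1, 767 ± 83.0 in treated resistant 2 and 416 ± 13.9 in treated parental cells, and with DMSO 4080 ± 401 in resistant 1, 662 ± 97.8 in resistant 2 and 131 ± 7.71 in parental cells. The log2 change of C5 in resistant 1 from parental cells was 3.79 ± 0.11 with the drugs (adjusted p = 4e-10) and 4.95 ± 0.14 with DMSO (adjusted p = 4.48e-10). MASP1, a protease of the lectin pathway, averaged 112 ± 29.4 normalized counts in treated resistant 1, 630 ± 48.6 in treated resistant 2 and 9.41 ± 3.90 in treated parental cells. With DMSO, MASP1 averaged 72 ± 12 in resistant 1, 471 ± 58.9 in resistant 2 and 10.9 ± 4.14 in parental cells. The parental means lay near the filter of 10 normalized counts, which MASP1 passed through resistant libraries, so no test is given.

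With ATRA and decitabine, 8 of 26 listed genes rose and 2 fell in resistant 1, where 15.0% of all genes rose and 13.8% fell. In resistant 2, 5 rose and 2 fell, against 10.0% and 9.25%, and in parental cells 19 rose and 5 fell, against 35.0% and 28.9%. Their median log2 change was 0.13 in resistant 1 (-0.0063 over all genes), 0.02 in resistant 2 (-0.0047 over all genes) and 0.56 in parental cells (0.02 over all genes). The 26 include C4BPB and CPN1, which had 0 parental DMSO reads and passed the filter through libraries where they are higher. These counts and medians therefore describe the list and do not test it. C5AR2, the other receptor for C5a, rose in parental cells to 7.23 ± 0.650 CPM with the drugs against 0.415 ± 0.120 CPM with DMSO (log2 change 2.54 ± 0.06, adjusted p = 7.53e-15), where C5AR1 was lower with the drugs. C5AR2 also rose in resistant 1 (0.54 ± 0.06, adjusted p = 9.9e-06) and resistant 2 (0.21 ± 0.06, adjusted p = 0.0257). The C5AR2 means were 0.559 CPM with the drugs and 0.0741 CPM with DMSO in resistant 1. In resistant 2 they were 0.280 CPM with the drugs and 0.104 CPM with DMSO. The log2(CPM + 1) scale understates changes at such levels. Vitronectin (VTN), an inhibitor of the terminal complex, rose in parental cells by 2.09 ± 0.14 (adjusted p = 1.48e-09) and in resistant 1 by 0.57 ± 0.14 (adjusted p = 0.00625). Thrombomodulin (THBD) rose in parental cells by 1.27 ± 0.23 (adjusted p = 0.000109) and in resistant 1 by 1.17 ± 0.23 (adjusted p = 0.00098), and its response was higher in resistant 1 than in resistant 2 by 1.48 ± 0.32 (adjusted p = 0.0112). CFI rose in resistant 2 by 0.81 ± 0.10 (adjusted p = 1.94e-05), to 81.2 ± 12.6 CPM with the drugs against 45.5 ± 1.2 CPM with DMSO. C1QBP, which encodes a binding protein of C1q heads, fell in all 3 populations, to 239 ± 5.61 CPM with the drugs against 484 ± 30.7 CPM with DMSO in parental cells. Its log2 change was -0.50 ± 0.07 in resistant 1 (adjusted p = 0.000107), -0.28 ± 0.07 in resistant 2 (adjusted p = 0.0125) and -1.02 ± 0.07 in parental cells (adjusted p = 4.4e-09).

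Responses of the listed genes were lower than in parental cells for 16 of 26 and higher for 5 in resistant 1, against 25.3% and 17.0% of all genes, and lower for 17 and higher for 5 in resistant 2, against 28.3% and 19.7%. The largest on the log2(CPM + 1) scale, among genes averaging at least 1 CPM, were those of C5AR2 and VTN. For C5AR2 they were -2.00 ± 0.09 in resistant 1 (adjusted p = 5.31e-11) and -2.33 ± 0.09 for resistant 2 (adjusted p = 6.49e-12). For VTN they were -1.52 ± 0.20 in resistant 1 (adjusted p = 1.27e-05) and -1.98 ± 0.20 for resistant 2 (adjusted p = 5.48e-07). C5AR2 reached that average through treated parental cells and lay under 1 CPM in every resistant group. The scale understates changes there, so the size of the C5AR2 differences depends on it. Each set shares the parental libraries, and the counts describe the list without testing it.

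**Figure D3:**
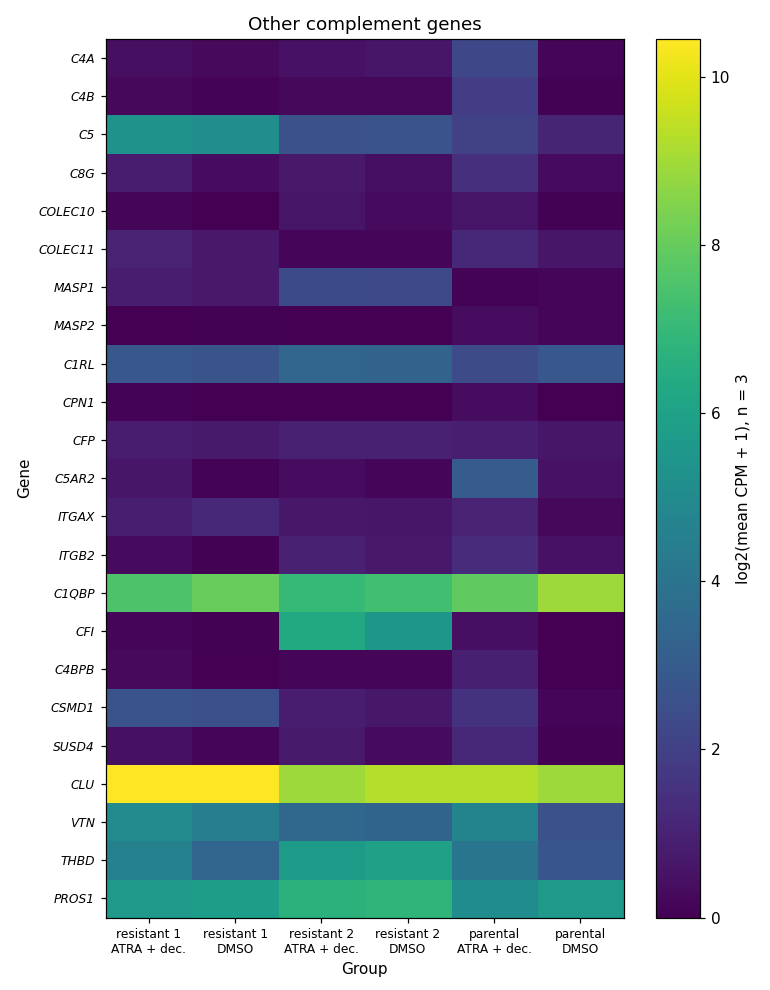
Mean level of 23 other complement genes in the 6 groups as log2(mean CPM + 1), 3 libraries each, by colour from dark (low) to light (high). CFI is lighter in both resistant 2 columns (81.2 CPM with the drugs and 45.5 CPM with DMSO) than in both resistant 1 columns (0.151 CPM with the drugs and 0.0346 CPM with DMSO).

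The genes whose 6 group means followed C3 most closely, by the root mean square difference of centred log2(CPM + 1) values among 15611 genes, were FNDC1 (0.56), WNT4 (0.62), MRC2 (0.64) and TCN1 (0.69). FNDC1, for example, averaged 48.8 CPM in treated resistant 2 and 96.9 CPM in DMSO-treated resistant 2, against 3.66 CPM in treated and 0.160 CPM in DMSO-treated parental cells. Within resistant 2 the FNDC1 mean was thus lower with the drugs, unlike that of C3, at 215 CPM with the drugs and 168 CPM with DMSO. For C5AR1 they were FMNL1 (0.35), the antisense gene AC023906.5 (0.39), AL391807.1 (0.42) and NRG4 (0.43), and FMNL1 averaged 40.8 CPM in treated and 119 CPM in DMSO-treated parental cells. The measure describes 6 points that share libraries and depth.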

How the data were processed

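RNA-seq libraries of 18 NCI-H460 cultures were made with a stranded mRNA kit, per the labels' protocols. Per the submitters' processing notes, FastQC, MultiQC, STAR, featureCounts and DESeq2 were used with GRCh38 (hg38). No versions, and no strand setting for the counting, are named. Treated and DMSO libraries were normalized apart by the authors. In the deposited DMSO table the signal is a DESeq2 normalized count, from which whole reads were recovered: 100% of values above 0 were whole within 0.01 read. In the deposited table of treated libraries the values, in no standard unit, lack their decimal points. They were restored by finding the powers of 10 that make the 9 values of a gene whole reads at a likely level. Of 25156 genes that reached 10 normalized counts in 3 or more of 9 libraries, 20603 (81.9%) reached a posterior of 0.99. On the DMSO table without its decimal points, 18 of 17510 resolved genes were wrong. Restoring without the DMSO population differences changed 0 genes resolved both ways.

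Populations were tested within a table on log2(normalized count + 1) with limma 3.58.1 (trend) in R 4.3.3. Responses and their differences were tested on log2(CPM + 1) over 21032 genes with at least 10 reads in at least 3 of 18 libraries, scaled by TMM (edgeR 4.0.16). P-values were adjusted by Benjamini-Hochberg over all genes tested and called under 0.05. The code was tested on simulated data. Within groups, counts differed beyond sampling noise (chi-square divided by its degrees of freedom 23.8 to 126). No batch or date is given in the labels.

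Deviations from group means over 5000 genes were correlated between treated and DMSO libraries. Libraries of the same number gave 0.45 to 0.94 (median 0.86) in resistant 1 and 0.78 to 0.91 (median 0.91) in resistant 2. Different numbers gave -0.89 to 0.63 (median -0.54) in resistant 1, which overlaps, and -0.75 to -0.08 in resistant 2, which does not. The number thus pairs the libraries more clearly in resistant 2 than in resistant 1. The main tests of the responses fit no block for it. Between populations (-0.79 to 0.74 with DMSO, -0.51 to 0.61 with the drugs) the number does not pair libraries. In parental cells the same number gave -0.40 to 0.58, with a median of 0.54, against a median of -0.38 for different numbers. With 3 such pairs this does not settle whether the number pairs the parental libraries. Genes were named by GENCODE 29 (57447 of 58051 identifiers). The 9 genes and all lists were chosen with earlier results of these data known. Other complement genes are named where they are among the 4 largest called changes of a comparison with a mean of at least 50 normalized counts (1 CPM for responses), and some genes selected in this way are not reported here.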

Additional observations from a re-analysis of the deposited data

Results flagged for a closer look

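A difference between populations in the response to ATRA and decitabine, tested as an interaction in log2(CPM + 1), drew attention to CD59 and C1S, in resistant 1 and in resistant 2. The CD59 response was lower than in parental cells by -1.01 in resistant 1 and -0.63 in resistant 2, and the C1S response by -0.48 in resistant 1 and -0.51 in resistant 2. Every treated CD59 value was below every DMSO value of its population in both resistant populations, whereas the parental CD59 values overlapped.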

How the results depend on the processing

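The population comparisons kept their counts of called genes within 1.5 times under every alternative tried (with the replicate block, whose numbers do not pair these libraries, 11587 genes against 12102 without it for resistant 1 against parental cells with DMSO). The replicate block raised the genes called to 9380 for the resistant 1 response, 7207 for the resistant 2 response and 3003 for the difference between these responses, and the tested complement genes called to 4, 4 and 2 of 5. For resistant 2 minus parental response CD55 (adjusted p = 0.000126) passed with the block, as did the parental CD55 response (adjusted p = 0.00037). It changed no other call in the responses beyond those given with the results. Without the filter 1 complement gene remained called in the resistant 1 response. With the compared groups alone, 1754 genes were called for the resistant 2 response. The difference between the resistant responses had 653 genes by edgeR and 529 at a stricter posterior for the restored values. At that posterior C3, C5AR1 and SERPING1 have no treated value. Leaving out single libraries gave 0 to 1 called complement genes for the difference between the resistant responses, 1 to 2 for the resistant 1 response and 1 to 2 for the resistant 2 response.

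Changes of sign occurred only among uncalled values near 0. CD46 became -0.00124 in the parental response without a filter, 0.00119 in the resistant 2 response at the stricter posterior, and 0.0294 and 0.0179 in resistant 1 minus parental response with the compared groups alone and without a filter. C3 in resistant 1 minus resistant 2 response became 0.0016 with the compared groups alone, 0.0152 with DESeq2 and 0.0015 with a pseudocount of 0.1 CPM. Without single libraries the ranges were -0.0154 to 0.0196 (CD46, resistant 1 response), -0.0645 to 0.0366 (CD46, resistant 2 response), and, for the difference between the resistant responses, -0.0091 to 0.202 (C1R), -0.0051 to 0.0859 (C1S), -0.316 to 0.273 (C3) and -0.0292 to 0.0719 (CD46). The causes were not tested. Low genes are under-represented with the drugs: 44.3% of genes with a mean under 30 normalized counts were resolved, against 98.8% from 1000.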
